A study of Mus musculus with 32 samples.

Results

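The 10 genes described here belong to the leukotriene and prostaglandin pathways, and all 10 were found among the 54446 genes of the count tables. They are the leukotriene genes Ltb4r1, Alox5, Alox5ap, Lta4h and Ltc4s and the prostaglandin genes Ptgs1, Ptgs2, Ptges, Ptger2 and Ptger4. The list was chosen with measured values of these libraries in view, since Ltb4r1 was higher after low dose regorafenib than after vehicle in the batch labelled p103. The values of that comparison are therefore given as a description without a test.

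RNA sequencing counts were available for 32 liver tumours in 10 groups and 3 batches. All mice were BALB/c animals carrying tumours of BNL-MEA, a transformed mouse liver cell line, placed in the liver, so every group rests on 1 cell line in 1 mouse strain. In batch p112, 4 tumours had received vehicle, 3 regorafenib at the low dose of 5 mg/kg/day and 3 regorafenib at the high dose of 20 mg/kg/day. In batch p103, 4 had received vehicle, 3 the low dose and 3 DC-101, which binds VEGFR2 of the mouse and was dosed at 800 ug (days 1, 3 and 5). In batch p101, groups of 3 had received vehicle, the low dose, anti-PD1, or the low dose with anti-PD1 (the combination). Regorafenib inhibits a range of kinases that includes the VEGF receptors, and anti-PD1 blocks a receptor that restrains T cells. The comparisons ask how the treatments change gene expression in the tumour and its immune cells.

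Leukotrienes and prostaglandins are lipid mediators made from arachidonic acid, which phospholipases release from membranes. 5-Lipoxygenase (Alox5), helped by the membrane protein FLAP (Alox5ap), makes leukotriene A4. Leukotriene A4 hydrolase (Lta4h) turns it into leukotriene B4, an attractant of neutrophils and other leukocytes that acts through the receptor BLT1 (Ltb4r1), and leukotriene C4 synthase (Ltc4s) makes the cysteinyl leukotrienes. The cyclooxygenases COX-1 (Ptgs1) and COX-2 (Ptgs2) make prostaglandin H2, from which the microsomal prostaglandin E synthase (Ptges) makes prostaglandin E2. Prostaglandin E2 raises cAMP in target cells through the receptors EP2 (Ptger2) and EP4 (Ptger4).

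Total counts were between 16.8 and 27.7 M per library. Values are log2 CPM, counts relative to the library total after TMM scaling within a batch, and levels are therefore compared within a batch. The study describes the libraries of the anti-PD1 experiment as separate tumours, the labels do not say for any batch whether each library came from its own mouse, and p-values measure the spread between these libraries. Markers of hepatocytes summed to between 17.8 and 86800 CPM, and the highest sum was that of replicate 1 of the high dose, which also had the lowest TMM factor (0.678). Of the markers of liver cancer and epithelial cells, Krt8 was between 4.54 and 414 CPM and Afp between 0.0449 and 3.54 CPM. Fibroblast markers summed to between 5540 and 20500 CPM and macrophage markers to between 621 and 5750 CPM.

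Promoter sequences of 300 bases (250 before the start site and 50 from it on) were taken from RefSeq on GRCm38.p6 for 9 of the 10 genes, all except Alox5ap. The promoters of Ltb4r1, Ptgs2 and Alox5 are printed because the values below turn on these genes. They are the regions chr14:55765712-55766011 (plus strand) for Ltb4r1, chr1:150099781-150100080 (plus strand) for Ptgs2 and chr6:116461129-116461428 (minus strand) for Alox5. Each is written 5′ to 3′ on the strand of the gene, and capitals mark the motifs that were searched.
Ltb4r1: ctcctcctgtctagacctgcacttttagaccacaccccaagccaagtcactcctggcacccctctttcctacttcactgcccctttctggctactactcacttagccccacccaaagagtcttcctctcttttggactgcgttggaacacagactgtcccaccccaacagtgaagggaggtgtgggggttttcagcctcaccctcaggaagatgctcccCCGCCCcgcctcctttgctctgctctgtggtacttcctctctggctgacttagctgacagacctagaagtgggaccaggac
Ptgs2: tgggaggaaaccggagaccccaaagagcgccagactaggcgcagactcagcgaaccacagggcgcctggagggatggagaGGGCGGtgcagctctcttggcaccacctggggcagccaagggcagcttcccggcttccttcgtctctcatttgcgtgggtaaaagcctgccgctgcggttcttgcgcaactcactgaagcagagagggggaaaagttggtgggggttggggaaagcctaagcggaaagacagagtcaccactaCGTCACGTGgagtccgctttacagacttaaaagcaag
Alox5: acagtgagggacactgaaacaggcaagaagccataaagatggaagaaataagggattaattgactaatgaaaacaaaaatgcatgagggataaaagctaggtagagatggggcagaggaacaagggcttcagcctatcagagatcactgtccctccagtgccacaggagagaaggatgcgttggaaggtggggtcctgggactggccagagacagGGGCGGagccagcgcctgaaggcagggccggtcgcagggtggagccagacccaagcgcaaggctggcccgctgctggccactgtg

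The motifs searched on both strands were the cAMP response element TGACGTCA, its half-site TGACG, the GC box GGGCGG, the TATA box TATAAA and the E-box CACGTG. The full cAMP response element was in 0 of the 9 promoters, against 1.79% of 32851 RefSeq mouse promoters of the same length. The half-site, which the full element contains, was in the promoter of Ptgs2 alone, at positions 14 to 18 on the opposite strand (20.8% of all promoters). It overlapped an E-box at positions 17 to 22 (7.15% of all promoters), with position 1 as the start site. A GC box was in the promoters of Ltb4r1, Alox5, Ptgs2, Ptges and Ptger4 (5 of 9, against 35.7% of all promoters). It was at -31 to -26 in Ltb4r1, at -35 to -30 in Alox5 and at -170 to -165 in Ptgs2. The TATA box was in 0 of the 9 (13.6% of all). The GC content was 56.3% in Ltb4r1, 59.3% in Ptgs2 and 55.7% in Alox5, and the median of all promoters was 52.7%. These matches describe the letters only.

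The members differed widely in level in the vehicle tumours when CPM was divided by exon length. Alox5ap had the highest mean level of the 10 in each batch, with 38.8 ± 7.92 CPM per kb in p112 (SD, n = 4), 55.6 ± 5.43 in p103 (SD, n = 4) and 72 to 148 in p101 (n = 3). Its ranges did not overlap with those of the next gene by mean in p103 and p101, but they overlapped with those of Ptgs2 in every batch. In p103 Ptgs2 was at 5.6 to 78.7 and Alox5ap at 47.7 to 59.8 CPM per kb, and in p101 Ptgs2 was at up to 91.9. In p112 the range of Alox5ap also overlapped with those of Ptges and Ptgs1. Ptges, Ptgs2, Ptgs1, Lta4h and Ltc4s followed, with means between 16.7 and 43.3 CPM per kb, and neighbours in that order overlapped in every batch. Alox5, Ltb4r1, Ptger4 and Ptger2 were lower, with means between 0.229 and 4.68 CPM per kb. In each batch the means of these 4 were below those of the first 6, and only in p101 did a range reach across, with Alox5 at up to 9.1 and Ptgs2 from 6.76 CPM per kb. Within the vehicle groups Lta4h varied least relative to its mean in p112 and p103 (20 ± 0.823 and 21.4 ± 0.536 CPM per kb), and Ptgs2 varied the most in p101 (35.7 ± 48.7 CPM per kb).

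**Figure D1:**
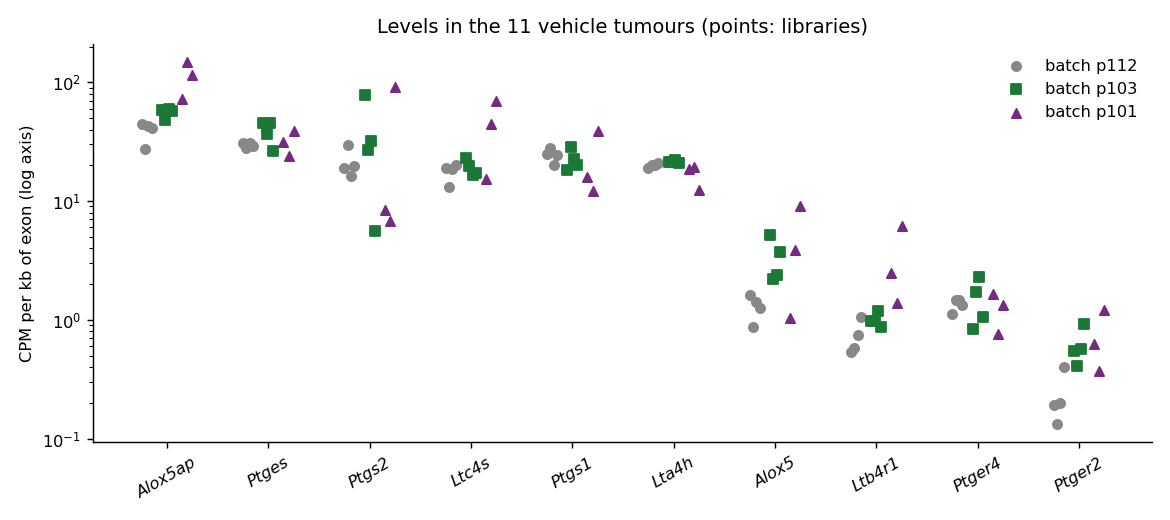
Levels of the 10 members in the 11 vehicle tumours, as CPM per kb of exon on a log axis, with 1 point per library and a symbol for each batch. The 6 genes on the left are above the 4 on the right in the mean of each batch, and Ptgs2 is spread from 5.6 to 78.7 CPM per kb in p103 and from 6.76 to 91.9 in p101.

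The leukotriene B4 receptor gene Ltb4r1 lies on chromosome 14 (55765962 to 55768494, plus strand, GRCm38). In p103, the comparison by which the list was chosen, it had 31, 35, 34 and 27 counts in the vehicle tumours and 119, 111 and 90 counts after low dose regorafenib. On the log2 scale these were 0.54, 0.55, 0.80 and 0.38 log2 CPM against 2.47, 2.36 and 2.39 log2 CPM, with means of 0.57 and 2.41. The log2 change in the edgeR fit was 1.89. All 3 low dose libraries were above all 4 vehicle libraries. In p103, 0.0248% of 16138 genes passed an adjusted p of 0.05 and 16.4% had groups that did not overlap, and nothing is read from Ltb4r1 against these shares because the rule used this contrast. In these bulk libraries, fewer cells of a type and less RNA per cell cannot be told apart.

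In the other batches the low dose and vehicle groups overlapped. In p112 Ltb4r1 was at -0.28, -0.18, 0.15 and 0.63 log2 CPM in the vehicle tumours and at 0.53, 0.30 and 0.19 log2 CPM at low dose. The log2 change was 0.23 ± 0.48 (SE, adjusted p = 0.994, edgeR). In p101 it was at 1.81, 1.01 and 3.10 log2 CPM in the vehicle tumours and at 1.92, 2.20 and 1.48 log2 CPM at low dose. The low dose libraries lay inside the vehicle range, and the log2 change was -0.35 ± 0.51 (SE, adjusted p = 0.863, edgeR). Without vehicle replicate 3, the library at 3.10, that change was 0.44. Over p112 and p101 together, the log2 change at low dose was -0.04 ± 0.34 (SE, adjusted p = 0.990, edgeR). Whether the p103 change differs from these was not tested, since the list was chosen on it.

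After DC-101 in p103, Ltb4r1 was at 1.17, 0.83 and 1.02 log2 CPM. Each DC-101 library was above each vehicle library, the same 4 libraries that serve the low dose comparison, and the log2 change of 0.46 ± 0.20 did not pass the threshold (SE, adjusted p = 0.371, edgeR). After anti-PD1 in p101 it was at 0.88, 0.53 and 1.48 log2 CPM, and after the combination at 2.09, 2.26 and 1.56 log2 CPM. The combination libraries were all above the anti-PD1 libraries, with a log2 change of 1.01 ± 0.52 that did not pass the threshold (SE, adjusted p = 0.630, edgeR). Anti-PD1 against vehicle gave -1.25 ± 0.52 (SE, adjusted p = 0.323, edgeR), and -0.47 without vehicle replicate 3. At high dose in p112 the 3 libraries were at 0.69, 0.15 and -1.34 log2 CPM, around the vehicle values. Ltb4r1 had 8 to 39 counts per library in p112 and 28 to 191 counts in p101. The SE of its low dose change against vehicle was 0.48 in p112 and 0.51 in p101.

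**Figure D2:**
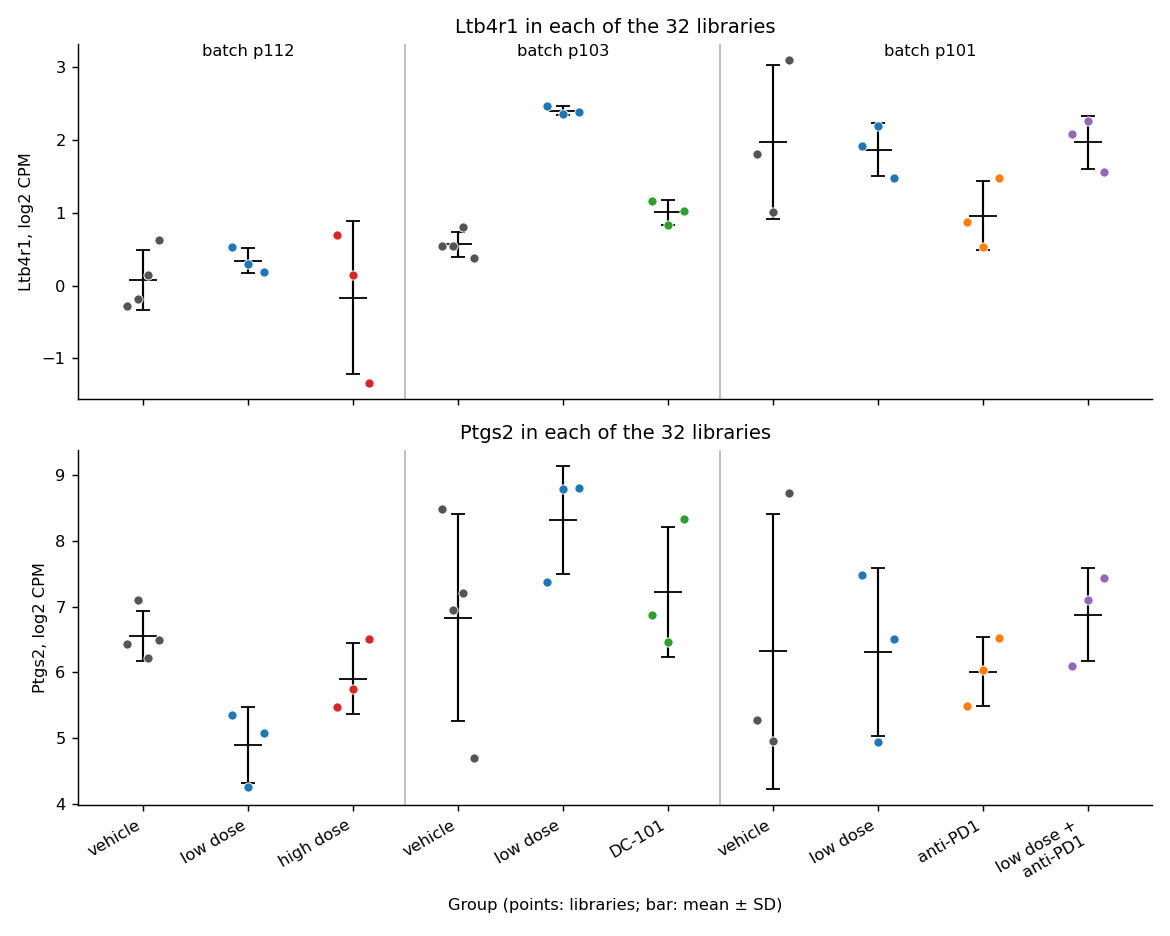
Log2 CPM of Ltb4r1 (top) and Ptgs2 (bottom) in each of the 32 libraries, by group and batch, with points for libraries and bars for the mean ± SD. The low dose libraries of p103 are at 2.36 to 2.47 for Ltb4r1, above the vehicle libraries of that batch, and Ptgs2 in p112 is at 4.25 to 5.35 at low dose and at 6.21 to 7.10 after vehicle.

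The 10 neutrophil markers had a count in at least 1 library each. Among them S100a9, Csf3r and S100a8 were the most abundant over the 32 libraries, and Ly6g had 0 to 12 counts per library. Their summed CPM was between 55.7 and 381 CPM in the low dose tumours of p103 and between 35.7 and 195 CPM in the vehicle tumours. The groups overlapped, and the low dose library with the lowest sum (55.7 CPM) had the highest Ltb4r1 (2.47 log2 CPM). Macrophage markers were between 2140 and 3110 CPM at low dose and between 2820 and 3810 CPM after vehicle. In p101 the vehicle library with the highest Ltb4r1 also had the highest neutrophil sum of its batch (288 CPM) and the highest platelet and megakaryocyte sum (204 CPM). In p103, endothelial markers (8 of 8 with counts) were at up to 139 CPM at low dose and between 205 and 468 CPM after vehicle, without overlap. Hepatocyte markers were between 1130 and 14000 CPM at low dose and between 17.8 and 4200 CPM after vehicle, and the 5 eosinophil markers between 0.728 and 6.51 CPM and between 0.18 and 1.26 CPM, both with overlap. Over the 32 libraries, with batch means taken off, the log2 CPM of Ltb4r1 correlated with the log2 marker sums at r = 0.45 for hepatocytes, 0.421 for neutrophils, 0.407 for eosinophils, -0.0466 for macrophages and -0.164 for endothelial cells. The part of these cells in the Ltb4r1 values was not tested.

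The genes whose log2 CPM followed Ltb4r1 most closely over the 32 libraries, after the mean of each batch was taken off, were Fgr (r = 0.797), Dok2 (r = 0.788), Atp8b4 (r = 0.767), Nt5e (r = 0.758) and B430306N03Rik (r = 0.749), out of 13993 genes. Fgr encodes a kinase of the Src family, Dok2 an adaptor protein of blood cells, and Nt5e the ecto-enzyme CD73 that makes adenosine. Within p112 alone, r was 0.673 for Fgr and 0.595 for Dok2, and within p103, which holds the low dose difference, it was 0.865 and 0.918. Libraries share their depth and treatment across these genes, so the correlations are a description.

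Of the 4 leukotriene synthesis genes, Alox5ap alone passed the test, at the high dose in p112. Alox5ap, on chromosome 5 (149264767 to 149288153, plus strand), was at 5.98, 5.27, 5.94 and 5.86 log2 CPM in the vehicle tumours, at 6.46, 6.38 and 6.11 log2 CPM at low dose and at 3.08, 4.54 and 4.16 log2 CPM at high dose. The 3 groups did not overlap, with low dose highest and high dose lowest. Alox5ap fell by 1.74 on the log2 scale at high dose against vehicle, with an SE of 0.33 (adjusted p = 0.0269, edgeR). Against low dose it fell by 2.28, with an SE of 0.35 (adjusted p = 0.0147, edgeR). Its low dose change of 0.54 ± 0.31 against vehicle did not pass the threshold (SE, adjusted p = 0.991, edgeR).

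Alox5ap was the 1 member of 10 past the threshold in each of the high dose comparisons, where 15.6% of 16525 genes were past it against vehicle and 4.22% against low dose. These shares fell to between 0.091% and 0.506% without any 1 vehicle library, and to 0.361% and 0.465% without low dose replicate 1 and replicate 2. At an unadjusted p under 0.05 there were 3 members against vehicle (40.1% of all genes) and 4 against low dose (29.3%). DESeq2 called 2 members against vehicle (32.2% of genes) and 3 against low dose (18.6%), and limma voom 1 (8.16%) and 2 (4.73%). The call against vehicle was lost when any 1 of the 4 vehicle libraries was left out (adjusted p between 0.061 and 0.079, edgeR), with only the groups compared in the fit (0.0746) and with the hepatocyte score as a covariate (log2 change -1.37, adjusted p = 0.0958). The call against low dose was lost without low dose replicate 1 (adjusted p = 0.0805, edgeR) or replicate 2 (0.0634) and with only the groups compared (0.178). Without high dose replicate 1, the library richest in hepatocyte markers, Alox5ap remained past the threshold in both comparisons.

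Alox5, on chromosome 6 (116410077 to 116461178, minus strand), had group means in the same order but with a wider spread. It was at 2.75, 1.86, 2.56 and 2.39 log2 CPM in the vehicle tumours, at 4.19, 4.10 and 2.71 log2 CPM at low dose and at -1.07, 2.01 and 0.14 log2 CPM at high dose. The high dose libraries had 7, 108 and 26 counts, all below the 165 to 519 counts of the low dose libraries. Their log2 change of -2.93 ± 0.75 against low dose did not pass the threshold with edgeR (SE, adjusted p = 0.0609). It did with DESeq2 (adjusted p = 0.000995), with limma voom (0.0393) and with edgeR without high dose replicate 2 (log2 change -4.25, adjusted p = 0.0121). Against vehicle the change was -1.55 ± 0.69 at high dose (SE, adjusted p = 0.126, edgeR) and 1.39 ± 0.65 at low dose (SE, adjusted p = 0.991, edgeR).

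Lta4h, on chromosome 10, was at 6.84, 6.95, 6.94 and 6.99 log2 CPM in the vehicle tumours of p112 and at 6.24, 6.54 and 6.79 log2 CPM at high dose. The high dose libraries were all below the vehicle libraries, with a log2 change of -0.39 ± 0.15 (SE, adjusted p = 0.0852, edgeR). Ltc4s, on chromosome 11, was at 4.27, 3.74, 4.25 and 4.35 log2 CPM after vehicle and at 1.23, 3.59 and 3.72 log2 CPM at high dose. All 3 high dose libraries were again below the vehicle range, but replicate 1 lay far below the other two, and the log2 change was -0.98 ± 0.50 (SE, adjusted p = 0.175, edgeR). At low dose Lta4h was between 6.70 and 7.03 and Ltc4s between 3.69 and 4.44 log2 CPM, both overlapping with vehicle.

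**Figure D3:**
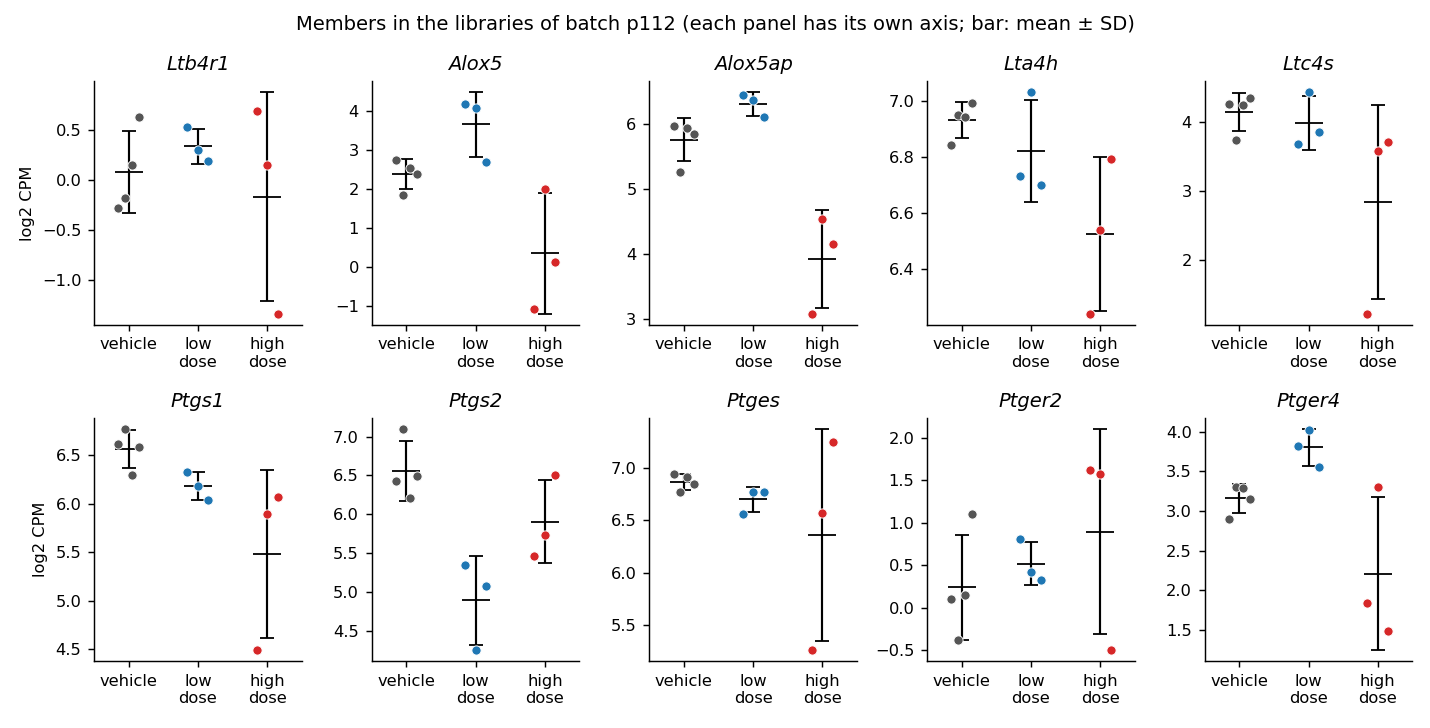
Log2 CPM of the 10 members in the 10 libraries of p112, in 1 panel per gene with its own axis, with points for libraries and bars for the mean ± SD. The 3 groups are separate for Alox5ap (high dose 3.08 to 4.54, vehicle 5.27 to 5.98, low dose 6.11 to 6.46), and for all 10 genes the SD is larger at high dose than after vehicle.

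Macrophage markers followed the same order in p112. All 10 markers had counts, and their summed CPM was between 1680 and 3170 after vehicle, between 3810 and 4400 at low dose and between 621 and 1480 at high dose. The vehicle library with the lowest sum (1680 CPM, replicate 2) was also the one with the lowest Alox5ap, Alox5 and Ltc4s. Hepatocyte markers were between 1070 and 5960 CPM after vehicle, between 1980 and 22200 CPM at low dose and between 2740 and 86800 CPM at high dose, so these groups overlapped. Mast cell markers, of cells that use Ltc4s, were between 0.431 and 5.34 CPM over the batch. Over all 32 libraries, with batch means taken off, the log2 CPM of Alox5ap correlated with the log2 sum of macrophage markers at r = 0.872 and that of Alox5 at r = 0.738, and Alox5ap with Alox5 at r = 0.897. These libraries share depth, batch and treatment, and the part of macrophage number in the changes was not tested.

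**Figure D4:**
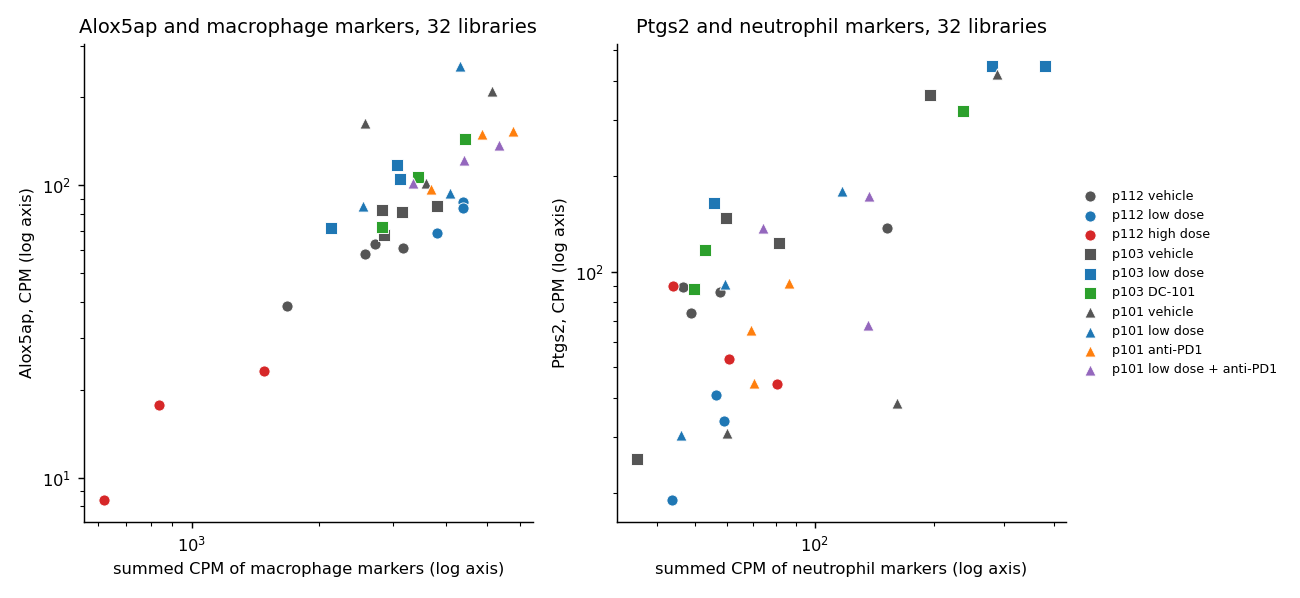
CPM of Alox5ap against the summed CPM of 10 macrophage markers (left) and CPM of Ptgs2 against the summed CPM of 10 neutrophil markers (right), on log axes, with 1 point per library, colours for treatments and symbols for batches. Among the libraries of p112, the 3 at high dose have the lowest macrophage sums (621 to 1480 CPM) and the lowest Alox5ap.

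In p101 none of the leukotriene genes passed the test. Alox5 was at 2.11, 4.01 and 5.23 log2 CPM in the vehicle tumours, a spread that held the low dose values of 2.55, 4.27 and 2.45 log2 CPM. Alox5ap was at 6.68, 7.72 and 7.35 log2 CPM after vehicle and at 6.41, 8.0 and 6.55 log2 CPM at low dose. Ltc4s was at 3.98, 5.50 and 6.15 log2 CPM after vehicle and at 3.53, 4.70 and 3.91 log2 CPM at low dose, a log2 change of -1.33 ± 0.54 (SE, adjusted p = 0.369, edgeR). After the combination it was at 4.68, 3.87 and 4.21 log2 CPM (log2 change -1.17 ± 0.53, SE, adjusted p = 0.607, edgeR), and after anti-PD1 at 6.08, 4.65 and 5.40 log2 CPM. When 1 library was left out, the Ltc4s change was between -1.75 and -0.80 at low dose and between -1.60 and -0.64 after the combination. Lta4h was at 6.83, 6.88 and 6.24 log2 CPM after vehicle and at 7.23, 7.50 and 7.27 log2 CPM after anti-PD1. These groups did not overlap, with a log2 change of 0.66 ± 0.22 that did not pass the threshold (SE, adjusted p = 0.256, edgeR).

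In p103 the same 4 genes did not pass the test after DC-101, and 0% of 16138 genes did. The log2 changes were 0.53 ± 0.48 for Alox5 (SE, adjusted p = 0.654, edgeR) and 0.45 ± 0.24 for Alox5ap (SE, adjusted p = 0.422, edgeR). Lta4h was at 6.84, 6.95 and 6.84 log2 CPM after DC-101, below the vehicle range of 6.99 to 7.08 log2 CPM, and its log2 change was -0.16 ± 0.10 (SE, adjusted p = 0.511, edgeR). At low dose, described without a test, Lta4h was at 6.94, 6.76 and 6.52 log2 CPM, also below that vehicle range. Alox5 at low dose (4.45, 3.92 and 3.24 log2 CPM), Alox5ap (6.87, 6.72 and 6.16) and Ltc4s (4.37, 4.14 and 3.14) overlapped with vehicle.

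Among the prostaglandin genes, Ptgs2 was spread from 4.25 to 7.10 log2 CPM in p112, from 4.69 to 8.80 in p103 and from 4.94 to 8.72 in p101. It lies on chromosome 1 (150100031 to 150108227, plus strand). In p112 it was at 6.43, 7.10, 6.21 and 6.49 log2 CPM after vehicle, at 5.35, 4.25 and 5.08 log2 CPM at low dose and at 5.47, 5.74 and 6.50 log2 CPM at high dose. All 3 low dose libraries were below every vehicle and every high dose library. The log2 change at low dose, -1.63 ± 0.35, did not pass the threshold with edgeR (SE, adjusted p = 0.525) and passed it with DESeq2 (adjusted p = 0.0068). Neutrophil markers in p112 were between 46.7 and 152 CPM after vehicle and between 43.7 and 59 CPM at low dose, and their part in this difference was not tested.

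In p103, where the comparison is a description, Ptgs2 was at 8.49, 6.94, 7.21 and 4.69 log2 CPM after vehicle and at 7.37, 8.79 and 8.80 log2 CPM at low dose. The mean at low dose was 1.49 log2 CPM above that after vehicle, and 0.77 without vehicle replicate 4, the library at 4.69, when 1 low dose library was below the vehicle mean. The groups overlapped, with vehicle replicate 1 at 8.49. That library had the highest neutrophil sum of the vehicle libraries (195 CPM), and the 2 low dose libraries near 8.80 had neutrophil sums of 381 and 279 CPM. Low dose replicate 1, at 7.37 log2 CPM, had a sum of 55.7 CPM. Vehicle replicates 2, 3 and 4, at 6.94, 7.21 and 4.69 log2 CPM, had sums of 81.4, 59.8 and 35.7 CPM. After DC-101 Ptgs2 was at 6.87, 6.46 and 8.33 log2 CPM, with the highest value in the library with the highest neutrophil sum of that group (237 CPM). Its log2 change was 0.10 ± 0.80 (SE, adjusted p = 0.972, edgeR). The part of neutrophils in the Ptgs2 values was not tested.

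In p101 Ptgs2 was at 5.27, 4.96 and 8.72 log2 CPM after vehicle, so 1 library decided the vehicle mean. It was at 7.48, 4.94 and 6.51 log2 CPM at low dose, at 5.48, 6.03 and 6.52 log2 CPM after anti-PD1 and at 6.09, 7.10 and 7.44 log2 CPM after the combination. Against vehicle the log2 changes were -0.70 ± 0.90 at low dose (SE, adjusted p = 0.835, edgeR) and -0.37 ± 0.90 after the combination (SE, adjusted p = 0.928, edgeR). Without vehicle replicate 3 they were 1.53 and 1.86. Over the 32 libraries, with batch means taken off, the log2 CPM of Ptgs2 correlated with the log2 sum of neutrophil markers at r = 0.723. For Ptgs2 the r was 0.496 with fibroblast, 0.357 with platelet and megakaryocyte and -0.34 with macrophage markers. Ptgs2 correlated with Ptges at r = 0.556, and Ptges with fibroblast markers at r = 0.655 and with neutrophil markers at r = 0.439. The part of these cells in the values was not tested.

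Ptgs1, on chromosome 2, was at 6.61, 6.77, 6.29 and 6.58 log2 CPM in the vehicle tumours of p112 and at 4.49, 5.89 and 6.07 log2 CPM at high dose. Each high dose library was below each vehicle library. The log2 change was -0.94 ± 0.32 (SE, adjusted p = 0.0647, edgeR), and it passed the threshold with DESeq2 (log2 change -0.90, adjusted p = 0.0362). In the other batches the log2 change of Ptgs1 against vehicle was between -0.44 and 0.09 in the comparisons tested. Without vehicle replicate 3, the values in p101 were 0.51 at low dose, 0.66 after anti-PD1 and 0.22 after the combination. Ptges, also on chromosome 2, was at 6.94, 6.77, 6.91 and 6.85 log2 CPM after vehicle in p112 and at 5.26, 6.57 and 7.25 log2 CPM at high dose, on both sides of vehicle. Its log2 change was -0.29 ± 0.36 (SE, adjusted p = 0.560, edgeR). Without high dose replicate 1 it was 0.11. In p103, without a test, Ptges was at 7.09, 7.88 and 7.83 log2 CPM at low dose and between 6.71 and 7.49 log2 CPM after vehicle.

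The prostaglandin E2 receptor gene Ptger4 lies on chromosome 15 (5206661 to 5244187, minus strand). It was at 2.90, 3.30, 3.29 and 3.15 log2 CPM in the vehicle tumours of p112, at 3.82, 4.03 and 3.56 log2 CPM at low dose and at 1.84, 3.31 and 1.48 log2 CPM at high dose. Low dose was above both other groups without overlap. The log2 change at low dose was 0.65 ± 0.40 against vehicle (SE, adjusted p = 0.991, edgeR). High dose against low dose gave -1.38 ± 0.44 (SE, adjusted p = 0.0953, edgeR), which passed the threshold with DESeq2 (adjusted p = 0.0207) and with edgeR without high dose replicate 2 (-2.18, adjusted p = 0.00376).

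In p101 the low dose and vehicle values of Ptger4 overlapped. It was at 3.48, 2.37 and 3.15 log2 CPM after vehicle, at 3.25, 3.27 and 3.95 log2 CPM at low dose and at 3.54, 4.03 and 4.32 log2 CPM after the combination. At low dose 2 of the 3 libraries lay below vehicle replicate 1. The combination libraries were all above vehicle, with a log2 change of 0.94 ± 0.38 (SE, adjusted p = 0.565, edgeR). Over p112 and p101 together, the low dose change was 0.57 ± 0.20 (SE, adjusted p = 0.320, edgeR). In p103 it was between 2.90 and 3.76 log2 CPM at low dose and between 2.50 and 3.94 log2 CPM after vehicle. T cell markers in p101 were between 4.14 and 39.9 CPM after vehicle, between 15.3 and 36.6 CPM at low dose and between 23.6 and 54 CPM after the combination, and in p112 between 6.8 and 13.4 CPM after vehicle, between 13.8 and 17.3 CPM at low dose and between 15.8 and 41.7 CPM at high dose. Macrophage marker sums in p112, given above, had the order of the Ptger4 group means, low dose highest and high dose lowest. With batch means taken off, Ptger4 correlated over the 32 libraries with the macrophage sum at r = 0.606, the fibroblast sum at r = 0.447 and the T cell sum at r = 0.43. The part of these cells in the Ptger4 values was not tested.

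The other receptor gene, Ptger2 on chromosome 14, had 12 to 142 counts per library. In p112 it was at 0.10, -0.38, 0.15 and 1.10 log2 CPM after vehicle, at 0.81, 0.42 and 0.33 log2 CPM at low dose and at 1.62, 1.57 and -0.50 log2 CPM at high dose. The groups overlapped, and the log2 change at high dose was 0.86 ± 0.55 (SE, adjusted p = 0.267, edgeR). It was the 1 member of 10 with a positive log2 change at high dose against vehicle. In p101 it was at 1.74, 1.01 and 2.68 log2 CPM after vehicle and at 0.43, 0.21 and 1.48 log2 CPM after anti-PD1, a log2 change of -1.19 ± 0.49 (SE, adjusted p = 0.320, edgeR). That change was between -1.71 and -0.63 when 1 library was left out. At low dose its 3 values in p101 were 1.16, 1.15 and 1.17 log2 CPM.

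**Figure D5:**
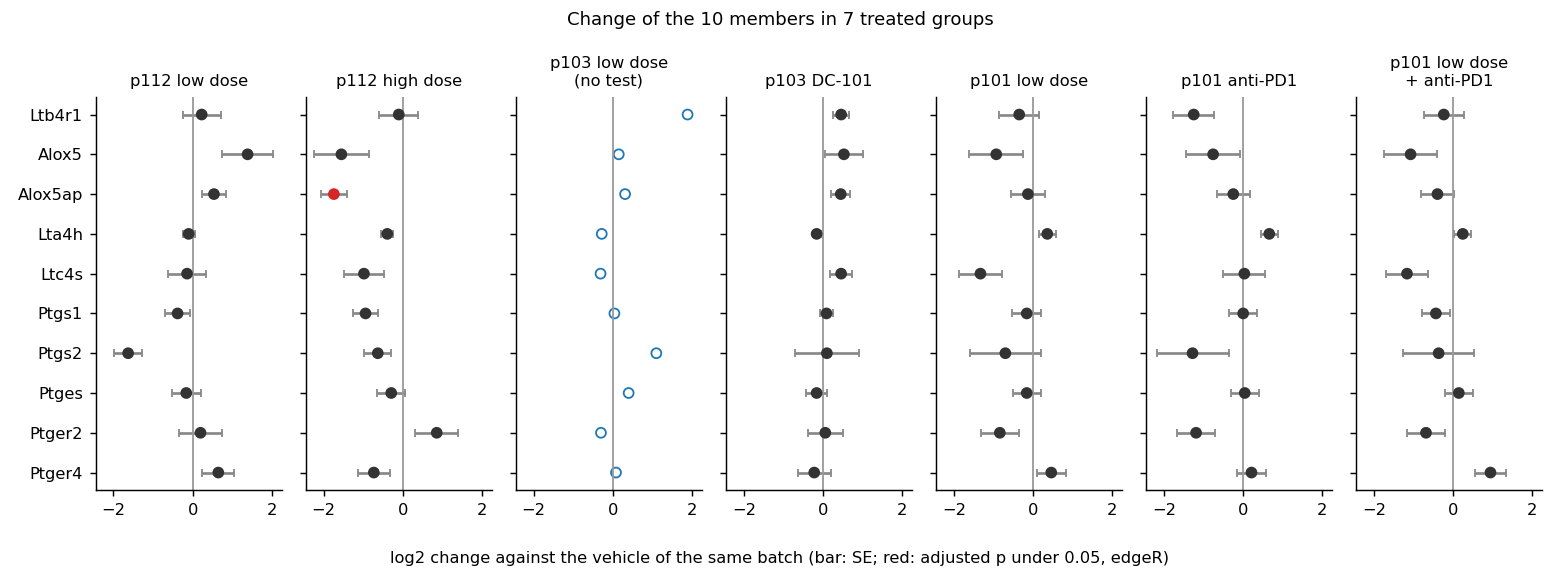
Log2 change of the 10 members in the 7 treated groups against the vehicle of the same batch, with bars for the SE and a red point where the adjusted p of edgeR was under 0.05. The p103 low dose panel has open points and no bars because that comparison chose the list. Alox5ap at high dose (-1.74) is the 1 red point.

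Counted over the list, the high dose in p112 gave the lowest values. The median log2 change of the 10 members was -0.68 against vehicle, while over all 16525 genes it was 0.02, and 9 of the 10 changes were negative. Groups did not overlap for 4 members (Alox5ap, Lta4h, Ltc4s and Ptgs1, all lower), against 28.3% of all genes. Against low dose the median was -0.44, with 0.07 over all genes, and groups did not overlap for Alox5, Alox5ap and Ptger4 (lower) and Ptgs2 (higher), against 27.8% of all genes. A count of 4 of 10 is near these shares. The calls against vehicle depended on the high dose libraries. Without replicate 2, Alox5 (-2.86, adjusted p = 0.047, edgeR) and Ptger4 (-1.51, adjusted p = 0.02) passed besides Alox5ap, and 3.19% of all genes did. Without replicate 3, Lta4h (-0.58, adjusted p = 0.019, edgeR), Ptgs1 (-1.24, 0.026), Ptgs2 (-1.03, 0.0443) and Ptger2 (1.25, 0.0441) passed besides Alox5ap, and 41.1% of all genes did.

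At low dose in p112, 0 of the 10 members and 0% of 16525 genes passed the threshold with edgeR. At an unadjusted p under 0.05 there was 1 member, against 4.94% of all genes. DESeq2 called 1 member (Ptgs2), against 0.518% of 16407 genes, and limma voom 0 members and 0% of genes. Groups did not overlap for Alox5ap and Ptger4 (higher) and Ptgs2 (lower), against 13.9% of all genes, and the median log2 change was 0.05. At low dose in p101, 0 members and 0% of 16615 genes passed, with 1 member at an unadjusted p under 0.05 (11.8% of all genes) and 0 called by DESeq2 (2.57% of genes) or limma voom (0%). There 0 members had groups that did not overlap, against 14% of all genes. In the fit over p112 and p101, 0 members and 0.208% of 16800 genes passed, with 1 member (Ptger4) at an unadjusted p under 0.05 (10.3% of all genes) and 0 called by DESeq2 (2.46%) or limma voom (0.226%). Whether the low dose change differed between p112 and p101 was tested as an interaction, and 0 members and 0% of genes passed. The 1 member at an unadjusted p under 0.05, against 7.11% of all genes, was Alox5, with a difference of 2.32 ± 0.96 (SE, adjusted p = 0.700, edgeR), and of 1.42 without vehicle replicate 3 of p101.

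After DC-101, 0 members passed with edgeR, DESeq2 (2.36% of genes) or limma voom (0%). With edgeR, 1 (Ltb4r1) was at an unadjusted p under 0.05, against 13.2% of all genes, and groups did not overlap for Ltb4r1 (higher) and Lta4h (lower), against 13.4% of all genes. After anti-PD1, 0 members and 0% of genes passed with edgeR, and 0 members with DESeq2 (3.71% of genes) or limma voom (0%). At an unadjusted p under 0.05 there were 3 of the 10 (Ltb4r1, Lta4h and Ptger2), against 13.7% of all genes. The groups did not overlap for Lta4h alone, against 16.6% of all genes. The combination against vehicle gave 0 members and 0% of genes past the threshold, 2 members at an unadjusted p under 0.05 (8.2% of all genes) and 0 called by DESeq2 (0.942%) or limma voom (0%). The groups did not overlap for Ptger4, against 17.7% of all genes. The combination against anti-PD1 gave 0 members and 0% of genes with edgeR, 1 member at an unadjusted p under 0.05 (8.68% of all genes) and 0 with DESeq2 (1.32%) or limma voom (0%). Groups did not overlap for Ltb4r1 (higher), Lta4h and Ptgs1 (lower), against 30.4% of all genes. The comparisons within a batch share libraries, the vehicle or the anti-PD1 group among them.

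The log2 changes not given so far did not pass the threshold in the edgeR fit reported, and the lowest adjusted p among them was 0.119, for Ptgs2 at high dose against low dose. At low dose in p112 they were -0.10 for Lta4h, -0.14 for Ltc4s, -0.38 for Ptgs1, -0.16 for Ptges and 0.20 for Ptger2. At high dose against vehicle they were -0.10 for Ltb4r1, -0.63 for Ptgs2 and -0.73 for Ptger4. Against low dose they were -0.33 for Ltb4r1, -0.29 for Lta4h, -0.84 for Ltc4s, -0.56 for Ptgs1, 1.01 for Ptgs2, -0.13 for Ptges and 0.66 for Ptger2. Ptgs2 and Ptger2 were thus the members with positive values against low dose. After DC-101 they were 0.46 for Ltc4s, 0.09 for Ptgs1, -0.16 for Ptges, 0.06 for Ptger2 and -0.22 for Ptger4. At low dose in p103, without a test, Ptgs1 was at 0.04 and Ptger2 at -0.30.

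In p101 vehicle replicate 3 decided several of the values. At low dose the log2 changes were -0.93 for Alox5 (-0.01 without that library), -0.13 for Alox5ap, 0.36 for Lta4h, -0.16 for Ptgs1, -0.16 for Ptges, -0.84 for Ptger2 (-0.28 without it) and 0.46 for Ptger4. After anti-PD1 they were -0.76 for Alox5 (0.17 without it), -0.25 for Alox5ap, 0.03 for Ltc4s (0.57 without it), 0.00 for Ptgs1, -1.28 for Ptgs2 (0.96 without it), 0.04 for Ptges and 0.21 for Ptger4. After the combination they were -0.24 for Ltb4r1 (0.55 without it), -1.08 for Alox5 (-0.15 without it), -0.40 for Alox5ap, 0.24 for Lta4h, -0.44 for Ptgs1 (0.22 without it), 0.14 for Ptges and -0.69 for Ptger2. None of these passed the threshold. When 1 library was left out, the change of Ptger2 after the combination was between -1.01 and -0.13. The combination against anti-PD1, which does not use the vehicle libraries, gave -0.32 for Alox5, -0.15 for Alox5ap, -0.43 for Lta4h, -1.21 for Ltc4s, -0.44 for Ptgs1, 0.91 for Ptgs2, 0.10 for Ptges, 0.50 for Ptger2 and 0.73 for Ptger4. In the fit over p112 and p101 the low dose values were 0.34 for Alox5, 0.23 for Alox5ap, 0.12 for Lta4h, -0.69 for Ltc4s, -0.27 for Ptgs1, -1.18 for Ptgs2, -0.16 for Ptges and -0.28 for Ptger2. For the difference between these batches, p112 minus p101, they were 0.60 for Ltb4r1, 0.68 for Alox5ap, -0.44 for Lta4h, 1.2 for Ltc4s, -0.20 for Ptgs1, -0.90 for Ptgs2, 0.02 for Ptges, 1.06 for Ptger2 and 0.21 for Ptger4.

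A further 34 genes of both pathways were followed, of which 28 or 29 had enough counts to be tested in a batch. At high dose against vehicle, 6 of 29 passed the threshold, while 15.6% of all genes did. These 6 calls were lost, with 0 of 29 left, when any 1 of the 4 vehicle libraries was left out, with only the groups compared and with the hepatocyte score. In those fits between 0.091% and 0.506%, 0.0249% and 0.926% of all genes passed. Hpgds, the haematopoietic prostaglandin D synthase, fell by 1.35 on the log2 scale, with an SE of 0.25 (adjusted p = 0.0269, edgeR). Cysltr1, a receptor of the cysteinyl leukotrienes, fell by 1.42, with an SE of 0.33 (adjusted p = 0.0368, edgeR). Cyp4f18, which inactivates leukotriene B4, fell by 1.67, with an SE of 0.49 (adjusted p = 0.0489, edgeR). Dpep1, a dipeptidase that cleaves leukotriene D4, rose by 3.01 ± 0.58 (SE, adjusted p = 0.0283, edgeR), Ptger3, the receptor EP3, by 2.53 ± 0.69 (SE, adjusted p = 0.0456, edgeR) and the secreted phospholipase Pla2g5 by 1.89 ± 0.51 (SE, adjusted p = 0.0449, edgeR). The median of the 29 was 0.08. Without high dose replicate 1 the calls were Dpep1, Hpgds and Ptger3, without replicate 2 they were Cysltr1, Hpgds and Tbxas1, and without replicate 3 there were 17 of 29. The shares of all genes in these 3 fits were 5.65%, 3.19% and 41.1%. Ptger3 was at 1.13 without high dose replicate 2.

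Against low dose, 4 of 29 passed, while 4.22% of all genes did. With low dose replicate 1 or replicate 2 left out, and with only the groups compared, 0 of 29 passed, as did 0.361%, 0.465% and 0% of all genes. Hpgds fell by 1.85 (SE 0.27, adjusted p = 0.0120, edgeR), Cysltr1 by 2.07 (SE 0.35, adjusted p = 0.0204, edgeR) and the thromboxane synthase gene Tbxas1 by 1.48 (SE 0.30, adjusted p = 0.0337, edgeR). Dpep1 rose by 3.24 (SE 0.65, adjusted p = 0.0330, edgeR). Hpgds and Cysltr1 were each past it in 4 of the 6 fits without 1 library, with limma voom and with the hepatocyte score, and Cysltr1 was at -2.67 without high dose replicate 2. Tbxas1 passed in 3 of these 6 fits and Dpep1 in 2. The same order as for Alox5ap, low dose highest and high dose lowest, was seen in the group means of Cysltr1 (5.35 log2 CPM at low dose, 4.71 after vehicle, 3.15 at high dose) and Hpgds (5.65, 5.19 and 3.78 log2 CPM).

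In the other comparisons 0 of these genes passed the threshold with edgeR. DESeq2 called 3 of 28 at low dose in p101 (2.57% of all genes), 2 after anti-PD1 (3.71%), 1 after DC-101 (2.36%), 3 in the fit over p112 and p101 (2.46%), 1 for the difference between these batches (0.234%) and 0 at low dose in p112 (0.518%) and in both comparisons of the combination (0.942% and 1.32%). The smallest unadjusted p at low dose in p112 belonged to Cyp4f18 (log2 change -1.29) and Alox12 (-2.16), a lipoxygenase of platelets. At low dose in p101 they belonged to Alox12 (-2.98) and Dpep1 (-3.01), the latter at a mean of 0.59 log2 CPM against 3.55 log2 CPM after vehicle. After anti-PD1 they belonged to Ptgis (-3.12, and -1.16 without vehicle replicate 3), the prostacyclin synthase, and Hpgd (-1.51), which breaks down prostaglandin E2. After DC-101 they belonged to Hpgd (3.01) and the leukotriene exporter Abcc1 (-0.65). After the combination against vehicle they belonged to Dpep1 (-1.70) and Ptgis (-1.87, and 0.09 without vehicle replicate 3), and against anti-PD1 to Hpgd (1.08) and the prostacyclin receptor gene Ptgir (1.47). In the fit over p112 and p101 they belonged to Alox12 (-2.48) and Cysltr1 (0.76), and for the difference between these batches to Dpep1 (2.81) and Ptgis (2.34, and 0.41 without vehicle replicate 3 of p101). Alox12 was between -3.59 and -1.65 at low dose in p112, and between -3.43 and -2.19 in p101, when 1 library was left out. None of these had an adjusted p under 0.05 in the edgeR fit reported. With the hepatocyte score as a covariate, Alox12 passed over p112 and p101 (-2.60, adjusted p = 0.0424, edgeR). At an unadjusted p under 0.05 there were between 1 and 8 of them per comparison. The highest count was 8 of 28 at low dose in p101, where 11.8% of all genes were under it.

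Some members share exon bases with other genes. An antisense gene, Gm26542, covers 26.4% of the exon bases of Ltc4s and had 1 to 77 counts, while Ltc4s had 40 to 1593. The antisense gene Gm19719 covers 13.3% of those of Alox5ap and had 0 to 135 counts against 148 to 4696. Ttc33 lies on the strand opposite to Ptger4, shares 1.23% of its exon bases and had 448 to 1256 counts, while Ptger4 had 62 to 472. The pseudogene Gm15937, also opposite to Ptger4, shares 15.3% of its exon bases and had 0 to 6 counts. The libraries were stranded, but the strand setting used for counting is not given in the sources used here. It is therefore open to which gene reads over shared bases were counted, or whether they were left out.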

How the data were processed

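RNA was measured by stranded mRNA sequencing in 32 tumours. The authors trimmed adapters with cutadapt 2.4, aligned reads to GRCm38 with STAR 2.7.2a and deposited unnormalized read counts for each gene and library. Of 54446 gene identifiers, 54409 were matched to Gencode M21 on the same build (1180 of them without the version suffix). Groups, batches and replicate numbers came from the labels. One edgeR 4.0.16 model (R 4.3.3) was fitted to all groups of a batch (filterByExpr with a minimum count of 10 and a minimum total of 15, TMM, robust quasi-likelihood F-test, 2-sided, Benjamini-Hochberg adjustment over all genes tested, threshold 0.05). The low dose fit over p112 and p101 had the batch as a term. Log2 CPM used a prior count of 2. Alternatives were RLE scaling, no filter on low counts, DESeq2 1.42.0, limma voom 3.58.1, the replicate number as a block, only the groups compared, a hepatocyte score as a covariate and leaving out each library. The code was tested on simulated data. Libraries of a group differed beyond sampling noise (chi-square per degree of freedom at least 12.9 over 36 pairs), and no library was treated as a copy. The members, the other pathway genes, the marker lists and the motifs were chosen with earlier results of these data known. All members are named in every comparison. Of the other pathway genes, those past the threshold are named, and per comparison the 2 with the smallest unadjusted p. For likeness to Ltb4r1, the 5 genes with the highest r are named. Of the symbols on the list, Prxl2b was read under its older symbol Fam213b. At a depth of 16.8 to 27.7 M counts, Ltb4r1 had 8 to 191 and Ptger2 12 to 142 counts per library, which limits their precision. The reads carry no molecular identifiers.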

Additional observations from a re-analysis of the deposited data

Results flagged for a closer look

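In the vehicle group of p112, with 4 libraries, replicate 2 lay far below the other 3 for Alox5ap (5.27 log2 CPM, the others between 5.86 and 5.98) and for Ltc4s (3.74 log2 CPM, the others between 4.25 and 4.35). The gap passed Dixon's critical value for 4 libraries in both. Chance gives such a gap in about 1 in 20 groups. The same library had the lowest total count (16.8 M), the lowest macrophage marker sum (1680 CPM) and the highest neutrophil marker sum (152 CPM) of its group. The part of these in the 2 values was not tested.

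The low dose change of Lta4h went in opposite directions in p103 and p101. Every low dose library was below the vehicle mean in p103 (mean difference -0.29 log2 CPM) and above it in p101 (0.39 log2 CPM). In p101 vehicle replicate 3 was at 6.24 log2 CPM and the others at 6.83 and 6.88, with the low dose libraries from 6.87 to 7.13. The fitted change of Lta4h there was 0.36 ± 0.22 (SE, adjusted p = 0.565, edgeR). It was between 0.19 and 0.48 when 1 library was left out. The low dose change of Ptgs2 went in opposite directions in p112 and p103, with every low dose library below the vehicle mean in p112 (-1.66 log2 CPM) and above it in p103 (1.49 log2 CPM). Without vehicle replicate 4 of p103 that difference was 0.77 log2 CPM, and 1 low dose library was then below the vehicle mean. The difference between the batches was not tested for either gene, since the list was chosen on p103.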

How the results depend on the processing

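Of 1450 alternative values for single members, 1352 kept their direction and their side of the threshold, 74 turned direction, 13 came to pass the threshold and 11 no longer passed it. Groups of 3 or 4 libraries limit all comparisons here, and low counts limit Ltb4r1 and Ptger2. The cause of the turns below was not tested.

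The number of members called at low dose in p112 was 1 with DESeq2. At high dose against vehicle it was 1 in the fit reported, 2 with DESeq2, 0 with only the groups compared, 0 with the hepatocyte score and between 0 and 5 when 1 library was left out (5 without high dose replicate 3). Against low dose it was 3 with DESeq2, 2 with limma voom, 0 with only the groups compared and between 0 and 3 when 1 library was left out (3 without high dose replicate 2). In the other comparisons it was 0 in every alternative run. Over all genes, high dose against vehicle gave 2582 calls with edgeR, 5275 with DESeq2 and 1349 with limma voom, and against low dose 697, 3059 and 782. Without high dose replicate 3 there were 7030 calls against vehicle (41.1% of 17092 genes) and 4488 against low dose (26.3%). Without 1 of the vehicle libraries high dose against vehicle gave between 15 and 83 calls over all genes, with only the groups compared 4, with the hepatocyte score 153 and with the replicate block 1. Of the further pathway genes, at high dose against vehicle, 6 were called with edgeR, 14 with DESeq2, 2 with limma voom, 2 without the filter, 17 without high dose replicate 3 and 3 without either of the others, and 0 without any 1 of the vehicle libraries, with only the groups compared, with the hepatocyte score or with the block. Against low dose these were 4, 7, 3, 4, 14 and between 3 and 5, then 0 without low dose replicate 1 or 2, 2 without replicate 3, 0 with only the groups compared, 2 with the hepatocyte score and 0 with the block. Of 371 alternative values for the named genes among them, 281 kept their direction and their side of the threshold, 80 no longer passed it (58 against vehicle and 22 against low dose), 9 came to pass it and 1 turned direction.

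The labels do not say whether the replicate numbers pair the libraries. Of the pairs with the same number, 2 of 9 in p112, 4 of 9 in p103 and 6 of 18 in p101 deviated together (r over 0.1). For replicate 3 in p103 the r was 0.452, 0.669 and 0.626, so these counts cannot exclude a pairing. With the replicate block, 0 members were called at high dose against vehicle (Alox5ap adjusted p = 0.192, edgeR) or against low dose (0.137). The block turned Ptgs2 after DC-101 (-0.43), Ptges after anti-PD1 (-0.01), Ptgs2 after the combination (0.28) and Ltb4r1 at low dose over p112 and p101 (0.19), and it changed no other count of members.

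With the hepatocyte score, these log2 changes turned: Ltc4s (0.10) and Ptges (0.08) at low dose in p112, Ptges (0.12) and Ptger2 (-0.06) at high dose against vehicle, Ptges (0.05) and Ptger2 (-0.07) against low dose, Ptgs2 after DC-101 (-0.10), Ltb4r1 at low dose in p101 (0.01), Ptgs1 (-0.09), Ptges (-0.12) and Ptger4 (-0.41) after anti-PD1, and Ltb4r1 at low dose over p112 and p101 (0.04). With limma voom, Ptgs1 (0.03) and Ptgs2 (0.01) at low dose in p101, Ptges after anti-PD1 (-0.02), Ptgs2 after the combination (0.56) and Ltb4r1 over p112 and p101 (0.04) turned.

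Leaving out 1 library turned these values, given as their lowest and highest. At high dose in p112, Ltb4r1 was between -0.59 and 0.27 against vehicle and between -0.83 and 0.04 against low dose, and Ptges between -0.84 and 0.11 and between -0.67 and 0.27. After DC-101, Ptgs1 was between -0.05 and 0.23, Ptgs2 between -0.68 and 0.83, Ptges between -0.31 and 0.04, Ptger2 between -0.12 and 0.36 and Ptger4 between -0.42 and 0.12. At low dose in p101, Ltb4r1 was between -0.71 and 0.44, Alox5ap between -0.83 and 0.14, Ptgs1 between -0.45 and 0.51, Ptgs2 between -1.42 and 1.53 and Ptges between -0.34 and 0.10. After anti-PD1, Alox5 was between -1.25 and 0.17, Alox5ap between -0.51 and 0.01, Ltc4s between -0.39 and 0.57, Ptgs1 between -0.29 and 0.66, Ptgs2 between -1.76 and 0.96, Ptges between -0.19 and 0.32 and Ptger4 between -0.04 and 0.45. After the combination against vehicle, Ltb4r1 was between -0.60 and 0.55, Ptgs1 between -0.73 and 0.22, Ptgs2 between -0.86 and 1.86, Ptges between -0.02 and 0.33 and Ptgis between -2.35 and 0.09. Against anti-PD1, Ptges was between -0.17 and 0.34. Over p112 and p101 at low dose, Ltb4r1 was between -0.17 and 0.32. For the difference between these batches, Ltb4r1 was between -0.17 and 0.94, Ptgs1 between -0.85 and 0.07, Ptges between -0.23 and 0.17 and Ptger4 between -0.05 and 0.49. In p101 the library whose absence turned Ltb4r1, Ptgs1, Ptgs2 and Ptgis after the combination, and Ltb4r1, Ptgs1 and Ptgs2 at low dose, was vehicle replicate 3.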
